A study of Rattus norvegicus with 33 samples.

Results

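The interferon response genes described here are 37 rat genes chosen by symbol for their known place in the response to interferon. They and the marker and pathway lists were chosen with earlier results of these data known. The counts below are therefore not independent of that choice. The genes were measured in the rat prostate after neonatal estrogen and adult hormone exposure. A gene's value came from the non-control probes that carried its name, and the brightest probe stood for the gene. Of the 37 genes, 36 passed the filter on dim probes, among 23156 genes tested on the array. Ifit1, which encodes a protein that binds viral RNA ends, was left out because its 1 probe was well above background on 0 of 33 arrays.

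Interferons are cytokines released when cells sense viral nucleic acid or when lymphocytes are activated. Type I interferons (alpha and beta) signal through the receptor Ifnar1-Ifnar2 and the kinases Jak1 and Tyk2 to a complex that holds Stat2 and Irf9 and binds the interferon-stimulated response element (ISRE) in the promoters of target genes. Type II interferon (gamma) signals through a receptor of its own and acts mainly at gamma-activated sites (GAS). The products of the target genes detect viral RNA, block viral translation and replication, and raise the cell's sensitivity to further interferon.

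Male Sprague-Dawley (Hsd:SD) rats had received subcutaneous estradiol benzoate (EB, 2.5 mg/kg) or vehicle on postnatal days (PND) 1, 3 and 5. Some were sampled at PND 30 without implants. The others received silastic tubing at PND 90, either 2 tubes of testosterone (T) with 1 tube of estradiol (E) or 3 empty tubes, and were sampled at PND 100 or PND 145. EB is an esterified estradiol used for neonatal estrogenization, and T with E raises both hormones in the adult. The 10 groups were vehicle (control, 4 arrays) and EB (4 arrays) at PND 30; EB+T+E, T+E, EB and control (3 arrays each) at PND 100; and EB+T+E, T+E and control (3 arrays each) with EB (4 arrays) at PND 145. All dams and pups received a low-phytoestrogen diet. The labels give 3 to 4 litters per group and do not tie an array to a litter, so p-values measure the spread between these arrays. The labels call the tissue whole prostate whereas the series title names the dorsolateral prostate. The lobes sampled are therefore not settled.

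Each of the 33 single-colour arrays held 58717 spots, with 61.5% to 68.9% of them well above background and 0 saturated. The array's 75th percentile of signal ranged from 1694 to 4737 intensity units. Levels are given as log2 signal minus the log2 of that percentile, so 0 is the 75th percentile of the array. The number of arrays limits the precision. All 10 luminal epithelial markers examined (among them Krt8, Krt18 and Cdh1) were well above background on every array. Within groups, arrays correlated between 0.864 and 0.986 over all genes, lowest in EB+T+E at PND 100. Differences are log2 ratios ± standard error (SE) from a limma model of all 33 arrays, and a gene was called when its Benjamini-Hochberg adjusted p over all genes tested fell below 0.05. Prostate is a mixed tissue, and in these bulk samples a change in the number of cells of a type cannot be told apart from a change in RNA per cell.

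RefSeq promoter windows (GRCr8, 250 bases before to 50 after the gene start) were matched for 28 of the 37 genes. The ISRE core GAAANNGAAA, searched on both strands, was found in 18 of these 28 windows (64.3%), compared with 1312 of 33469 windows of all genes (3.92%). The GAS core TTCNNNGAA, whose matches may overlap those of the ISRE core, was found in 7 of 28 (25%) and in 2970 of all windows (8.87%). Either motif was present in 21 of 28 (75%) and in 4110 of all windows (12.3%). Bst2, Ddx60, Ifi44, Ifi44l, Oas1a and Trim21 held 2 ISRE matches. Cmpk2, Herc6, Ifi35, Irf1, Irf8, Irf9, Mx1, Oasl, Parp9 and Stat2 held none in this window. A set of 5 windows is printed below 5′ to 3′ on the strand of the gene, with ISRE matches in capitals. The capitals in Ddx60 mark 2 separate copies and those in Oas1a 2 overlapping copies. Ifit3 and Irf7 carry the match on the opposite strand, and Isg20 has the same letters as Ddx60 although it was called in 0 of the 21 comparisons.
Ddx60 (chr16:33208790-33209089, minus strand): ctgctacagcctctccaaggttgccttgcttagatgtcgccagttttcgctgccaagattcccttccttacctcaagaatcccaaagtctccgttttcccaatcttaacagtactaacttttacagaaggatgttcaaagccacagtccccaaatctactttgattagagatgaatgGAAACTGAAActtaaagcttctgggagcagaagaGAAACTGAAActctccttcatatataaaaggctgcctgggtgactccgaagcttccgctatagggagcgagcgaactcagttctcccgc
Oas1a (chr12:41330216-41330515, plus strand): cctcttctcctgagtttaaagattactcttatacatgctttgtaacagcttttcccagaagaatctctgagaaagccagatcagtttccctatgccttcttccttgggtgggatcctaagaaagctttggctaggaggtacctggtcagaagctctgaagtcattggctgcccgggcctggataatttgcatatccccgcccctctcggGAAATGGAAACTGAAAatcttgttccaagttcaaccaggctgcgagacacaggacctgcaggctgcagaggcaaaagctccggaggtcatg
Ifit3 (chr1:241527076-241527375, plus strand): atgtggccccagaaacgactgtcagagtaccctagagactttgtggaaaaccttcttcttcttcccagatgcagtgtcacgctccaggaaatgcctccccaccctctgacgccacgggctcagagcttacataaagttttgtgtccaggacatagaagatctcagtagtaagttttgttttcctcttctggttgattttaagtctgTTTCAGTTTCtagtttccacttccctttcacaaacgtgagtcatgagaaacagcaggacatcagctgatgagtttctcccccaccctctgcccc
Irf7 (chr1:205799974-205800273, minus strand): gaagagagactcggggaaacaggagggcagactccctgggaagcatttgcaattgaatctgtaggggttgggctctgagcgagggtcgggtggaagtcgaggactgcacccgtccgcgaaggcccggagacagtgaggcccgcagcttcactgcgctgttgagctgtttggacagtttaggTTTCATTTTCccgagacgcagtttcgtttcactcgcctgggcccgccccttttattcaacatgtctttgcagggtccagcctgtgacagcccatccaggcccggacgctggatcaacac
Isg20 (chr1:142239809-142240108, plus strand): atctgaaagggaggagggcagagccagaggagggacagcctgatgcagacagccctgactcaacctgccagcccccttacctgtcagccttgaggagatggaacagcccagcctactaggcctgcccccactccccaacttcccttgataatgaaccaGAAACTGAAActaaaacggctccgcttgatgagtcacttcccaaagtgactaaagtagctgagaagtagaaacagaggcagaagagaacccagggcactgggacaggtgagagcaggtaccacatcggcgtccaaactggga
The match nearest the gene start began 39 bases before it in Ddx60, 35 in Oas1a, 44 in Ifit3, 69 in Irf7 and 92 in Isg20. A match describes the letters of the window and is not evidence of binding.

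The interferon response genes were highest in the prostates of rats that had received EB as neonates and T+E as adults, at PND 145. In that group 33 of the 36 tested genes were higher than in control, whereas 14.7% of all genes tested were called higher. Their median log2 ratio was 4.07, compared with -0.24 over all genes tested. The mean of the EB+T+E group at PND 145 was the highest of the 10 groups for 34 of 36 genes, an order not counted over all genes. The exceptions were Isg20 and Ifih1, whose highest means were in T+E groups. The 29 called genes that were measured in both groups ranged from a log2 ratio of 1.43 (Ifi35) to 6.44 (Ifit3). A further 4 (Ddx60, Oasl, Gbp4 and Xaf1) were not well above background on any control array, and their ratios are given as bounds, the mean of the EB+T+E arrays over the lowest signal measured above background on the control arrays or the probe's own signal where that was higher. With those 4 at their bounds the median stayed 4.07.

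**Figure D1:**
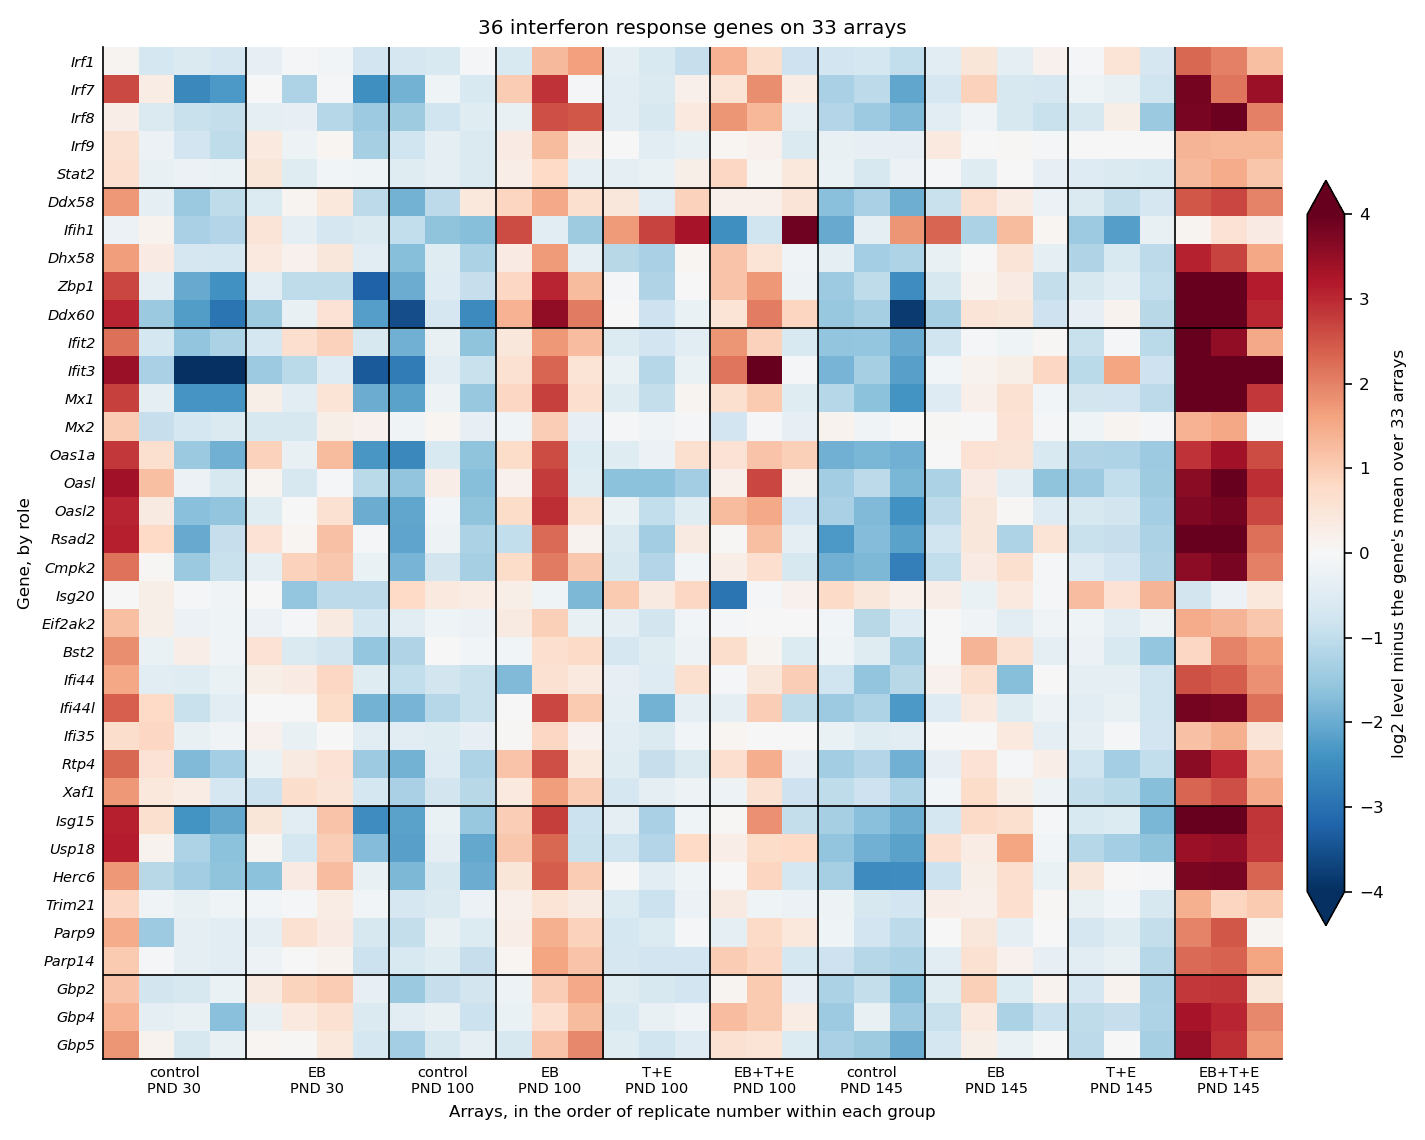
Heat map of the 36 tested interferon response genes (rows, ordered by role) on the 33 arrays (columns, by group). Colour is the log2 level minus that gene's mean over the 33 arrays, and the 3 EB+T+E arrays at PND 145 are the highest block, with control replicate 1 at PND 30 and EB replicate 2 at PND 100 the next.

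The transcription factors that carry and amplify the interferon signal were called higher in 5 of 5 cases in EB+T+E at PND 145, with a median log2 ratio of 2.65. Irf7, the factor that amplifies type I interferon transcription, stood at 3.29, 1.60 and 2.88 on the 3 EB+T+E arrays and at -1.84, -1.60 and -2.64 on the 3 control arrays (4.61 ± 0.93, limma adjusted p = 0.000545). In the same order, EB+T+E before control, Irf8, a factor of myeloid and B-lineage cells, stood at 1.99, 2.12 and 0.21 and at -2.96, -3.25 and -3.57 (4.70 ± 0.63, adjusted p = 7.08e-06). Irf1, the factor induced early by interferon gamma, stood at 3.58, 3.28 and 2.46 and at 0.51, 0.57 and 0.30 (2.65 ± 0.48). Stat2 and Irf9 are partners in the type I complex, and both had smaller ratios. Stat2 stood at 2.42, 2.61 and 2.24 and at 0.86, 0.49 and 0.88 (1.68 ± 0.28, adjusted p = 6.35e-05). Irf9 stood at 2.14, 2.13 and 2.13 and at 0.50, 0.45 and 0.47 (1.66 ± 0.35, adjusted p = 0.000853). For all 5 factors every EB+T+E array lay above every control array. This was so for 33 of the 36 genes and for 4792 of the 23156 genes tested.

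Of the sensors of viral nucleic acid, 4 of 5 tested were called higher in EB+T+E at PND 145 (median log2 ratio 4.02). Zbp1, a sensor of left-handed nucleic acid, stood at -0.19, -0.36 and -1.97 with EB+T+E and at -6.56, -6.12 and -7.59 in control (2 of 3 control arrays well above background; 5.92 ± 0.91, limma adjusted p = 3.17e-05). Ddx58, which encodes the RNA sensor RIG-I, stood at -1.74, -1.57 and -2.25 and at -5.90, -5.54 and -6.17 (4.02 ± 0.60). Dhx58, which encodes the related regulator LGP2, stood at -0.59, -0.96 and -2.12 and at -4.02, -5.03 and -4.91 (3.43 ± 0.56). Ddx60, a helicase that assists RIG-I, stood at -0.65, -0.66 and -2.85, whereas control arrays gave -7.37, -7.19 and -9.69, not well above background. This was at least 76.4-fold higher (adjusted p = 5.31e-05). The sensor that was not called was Ifih1, which encodes the RNA sensor MDA5. Its EB+T+E arrays gave -3.22, -2.74 and -3.01, within the control arrays at -5.33, -3.70 and -1.58 (0.55 ± 1.14, adjusted p = 0.737).

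Antiviral effectors, which act on viral RNA, translation or budding, were called higher in 15 of 17 cases (median log2 ratio 4.83). Ifit3, a tetratricopeptide protein that joins RNA-binding Ifit complexes, stood at -0.11, 0.47 and -0.69 on the EB+T+E arrays and at -6.62, -6.10 and -6.94 in control (6.44 ± 1.34). Its relative Ifit2 stood at 0.88, 0.13 and -1.89 and at -4.98, -4.96 and -5.43 (4.83 ± 0.75). Mx1, a dynamin-like GTPase that traps viral nucleoproteins, stood at 4.51, 4.41 and 3.12 and at -0.84, -1.34 and -2.11 (5.44 ± 0.88, limma adjusted p = 5.43e-05). Rsad2, the radical enzyme viperin, stood at 2.37, 2.47 and 0.56 and at -3.95, -3.37 and -3.79 (5.50 ± 0.89). Cmpk2, a mitochondrial nucleotide kinase encoded beside Rsad2, had the smallest p of the interferon response genes and stood at 0.81, 1.04 and -0.76 and at -4.70, -4.57 and -5.49 (5.28 ± 0.66, adjusted p = 3.87e-06). The oligoadenylate synthetase Oas1a, which activates RNase L, stood at 0.59, 1.08 and 0.32 and at -4.23, -4.11 and -4.21 (4.85 ± 0.90). The related Oasl2 stood at 1.40, 1.54 and 0.36 and at -3.60, -4.06 and -4.71 (5.22 ± 0.88). Oasl stood at -4.04, -3.02 and -4.69, whereas control arrays at -9.04, -8.70 and -9.49 were not well above background, a difference of at least 23.7-fold (adjusted p = 8e-05).

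The remaining 7 called effectors spanned a wide range of ratios. Ifi44l and Ifi44, paralogous interferon-induced proteins, rose by 4.93 and 3.42. Ifi44l stood at -1.57, -1.66 and -3.20 and at -6.85, -6.66 and -7.72 (2 of 3 control arrays well above background), and Ifi44 at 1.76, 1.63 and 1.05 and at -1.57, -2.37 and -1.89. Rtp4, a receptor-transporting protein, stood at 1.96, 1.39 and -0.40 and at -3.04, -2.82 and -3.56 (4.13 ± 0.75). Xaf1, a partner of the apoptosis inhibitor XIAP, stood at -3.84, -3.59 and -4.65 against -7.19, -7.02 and -7.41 in control, not well above background there, at least 9.05-fold higher (limma adjusted p = 4.22e-05). Bst2, the tetherin that holds budding virions at the cell surface, stood at 1.22, 2.37 and 2.06 and at 0.21, -0.08 and -0.94 (2.15 ± 0.55). Eif2ak2, the kinase PKR that stops translation, stood at 0.14, 0.02 and -0.23 and at -1.43, -2.43 and -1.85 (1.88 ± 0.32). Ifi35, a leucine-zipper protein induced by interferon, stood at -0.73, -0.49 and -1.41 and at -2.17, -2.39 and -2.34, the smallest called ratio (1.43 ± 0.29, adjusted p = 0.000499). In each of these genes the EB+T+E arrays lay above the control arrays, as they did for 4792 of 23156 genes tested.

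**Figure D2:**
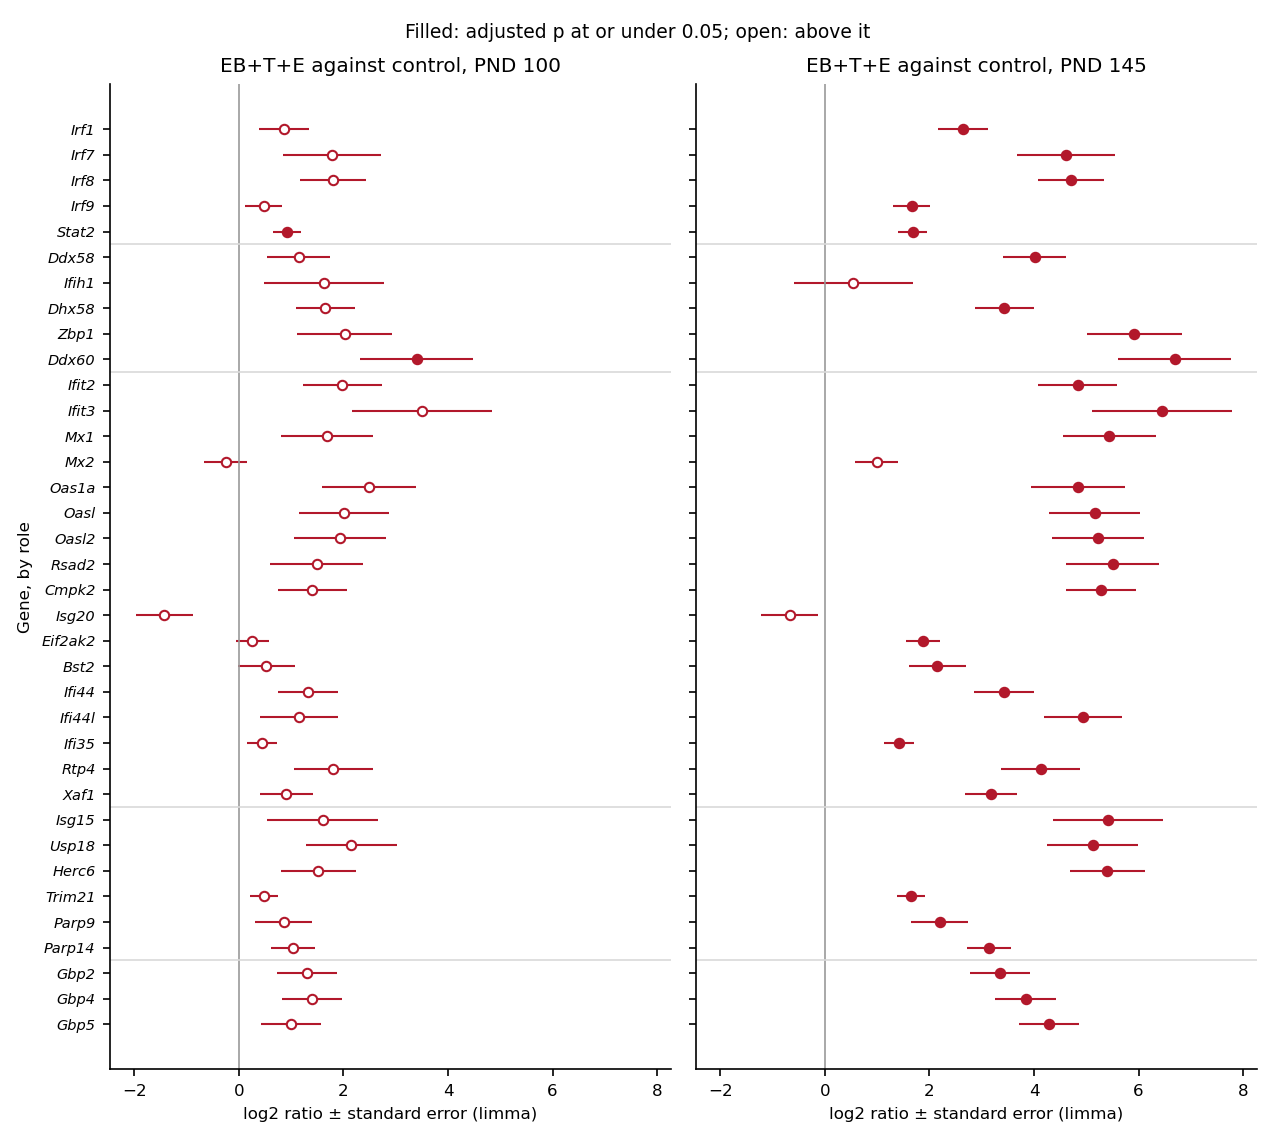
Log2 ratio of EB+T+E to control ± SE for the 36 genes, at PND 100 and at PND 145, with filled points for genes called by limma (3 arrays per group). At PND 145, 33 points are filled and the largest is Ddx60, whose control level is below background, and at PND 100 Stat2 and Ddx60 are filled.

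The genes of ubiquitin-like modification and ADP-ribosylation were called higher in 6 of 6 cases (median log2 ratio 4.13). Isg15, the ubiquitin-like protein that is conjugated to targets during the response, stood at 3.75, 3.84 and 2.44 with EB+T+E and at -1.75, -2.10 and -2.37 in control (5.41 ± 1.06, limma adjusted p = 0.000399). Usp18, the protease that removes Isg15 and dampens the type I receptor, stood at 1.20, 1.29 and 0.60 and at -3.78, -4.14 and -4.35 (5.12 ± 0.87). Herc6, the ligase for Isg15 in the mouse, stood at 1.64, 1.68 and 0.20 and at -3.45, -4.63 and -4.60 (5.40 ± 0.72, adjusted p = 6.76e-06). Parp14 and Parp9 are ADP-ribosyltransferase family members. Parp14 stood at 2.46, 2.57 and 1.77 and at -0.65, -0.93 and -1.06 (3.14 ± 0.42), and Parp9 at -0.66, -0.16 and -2.54 and at -2.83, -3.42 and -3.69 (2.19 ± 0.55). Trim21, a cytosolic antibody receptor and ubiquitin ligase, stood at -1.56, -2.11 and -1.94 and at -3.19, -3.60 and -3.74 (1.64 ± 0.27). The guanylate-binding proteins, GTPases that attack the vacuoles of intracellular pathogens and are strongly induced by interferon gamma, were called higher in 3 of 3 cases (median 3.84). Gbp5 stood at 1.40, 0.88 and -0.38 and at -3.39, -3.51 and -4.06 (4.28 ± 0.57, adjusted p = 6.98e-06), and Gbp2 at 3.38, 3.39 and 1.03 and at -0.73, -0.40 and -1.14 (3.36 ± 0.57). Gbp4 stood at -3.90, -4.15 and -5.28 against -8.67, -7.52 and -8.65, not well above background in control, at least 13.1-fold higher.

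Within the EB+T+E group at PND 145 the animals differed. Replicate 3 was the lowest of the 3 arrays for 31 of 36 genes, and the median deviation of the 36 genes from their means over all arrays was 3.19, 2.90 and 1.76 on replicates 1 to 3. The corresponding control values at PND 145 were -1.30, -1.16 and -1.80. Irf7 was different, with its lowest value on replicate 2, and Irf9 was nearly the same on all 3 arrays. For 9 of the 36 genes (Ddx58, Gbp4, Ifi44, Irf9, Mx1, Parp14, Stat2, Trim21 and Zbp1) all 3 EB+T+E arrays lay above all 30 other arrays of the study, as they did for 159 of 23156 genes tested (0.687%). The highest of the other arrays was control replicate 1 at PND 30 for 18 genes and EB replicate 2 at PND 100 for 11 genes. Leaving out any 1 array of the EB+T+E and control groups left 33 to 34 genes called. Slides 3 and 4 each held arrays of both groups, and the median ratio was 4.04 within slide 3 and 3.46 within slide 4.

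Markers of immune cells were higher in the same group. All-leukocyte markers (Ptprc, Coro1a, Laptm5, Lcp1 and Cd53) were called higher in 4 of 5 cases, and their summed linear level, relative to the 75th percentile, was 20.6 to 59.5 with EB+T+E and 5.90 to 6.41 in control. B-cell and plasma-cell markers were called in 8 of 8 cases with summed levels of 8.83 to 32.6 and 0.0673 to 0.0782. All 8 were well above background on every EB+T+E array, but 2 of 8 on each control array. T-cell markers were called in 10 of 10 cases (4.72 to 18.2 and 0.426 to 0.692), natural killer and cytotoxic markers in 5 of 6 (0.683 to 1.61 and 0.140 to 0.373), macrophage and dendritic markers in 10 of 11 (34.1 to 54.0 and 4.87 to 6.96) and neutrophil markers in 4 of 4 (0.924 to 2.33 and 0.00776 to 0.0207). Luminal epithelial markers summed to 50.4 to 107 with EB+T+E and 159 to 184 in control. Of these 10 markers 5 were called lower and 1 higher, beside 20.7% and 14.7% of all genes. Stromal markers were called higher in 5 of 8 cases. Replicate 3, the lowest for most interferon response genes, was also the lowest in the summed leukocyte, B-cell and T-cell markers. Neutrophil markers did not follow this order, with median deviations of 3.94, 4.52 and 4.83 on replicates 1 to 3. Products of the ventral prostate deviated by -5.50, -5.43 and 1.86 and those of the seminal vesicle by 1.48, 1.84 and -2.53, so replicate 3 stood on the other side of the mean from replicates 1 and 2 in both lists. On the control arrays the values were -0.74, 0.94 and 2.53 and 1.30, 6.74 and 2.24. The part of these cell types and secretory products in the interferon response values was not tested.

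**Figure D3:**
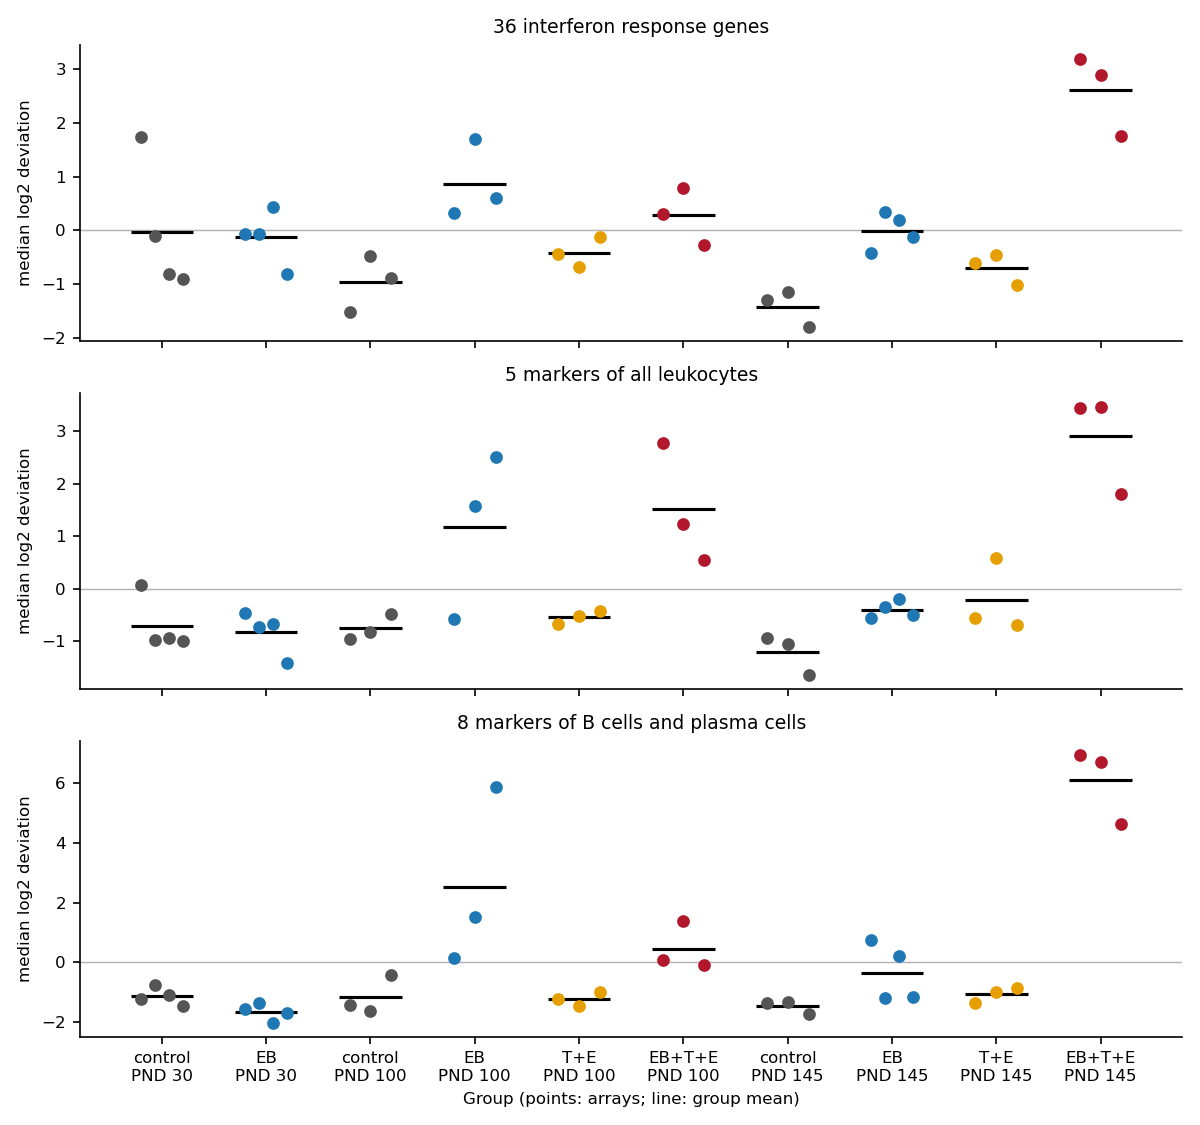
Median log2 deviation from the mean over 33 arrays, per array, of the 36 interferon response genes, the 5 all-leukocyte markers and the 8 B-cell and plasma-cell markers, with a line at each group mean. The 3 EB+T+E arrays at PND 145 are the highest in the first panel at 3.19, 2.90 and 1.76, and control replicate 1 at PND 30 reaches 1.74 with a leukocyte value of 0.08.

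The EB+T+E group at PND 145 was also set against each treatment alone, which asks whether the 2 exposures together differed from either. These comparisons share the EB+T+E arrays, so their values are given side by side and are not independent. Against T+E alone 33 of 36 genes were called higher (median log2 ratio 3.45, with 9.68% of all genes called higher). Against EB alone 32 were called higher (median 2.57, with 10.6% of all genes). Bst2 was the gene called against control but not against EB (1.10 ± 0.51, limma adjusted p = 0.117). Isg15 stood at -1.02, -0.98 and -2.23 with T+E alone and at -1.12, 0.36, 0.23 and -0.50 with EB alone, all below the lowest EB+T+E array at 2.44. Its ratio was 4.75 ± 1.06 against T+E and 3.60 ± 0.99 against EB. Cmpk2 stood at -3.30, -3.53 and -3.97 with T+E and at -3.75, -2.43, -2.12 and -2.81 with EB, with ratios of 3.96 ± 0.66 and 3.14 ± 0.62. The EB and EB+T+E arrays overlapped for Parp9 and Gbp2 among the called genes.

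The interaction between EB and T+E at PND 145 asks whether the EB effect differed with and without the adult hormones. Of the 36 genes, 2 were called, whereas 0.635% of all genes were called higher. Stat2 stood at 1.05, 0.65, 1.13 and 0.79 with EB and at 0.60, 0.55 and 0.52 with T+E, both overlapping the control range, and its interaction was 1.71 ± 0.38 (limma adjusted p = 0.0299). Gbp4 had an interaction of 3.41 ± 0.79 (adjusted p = 0.0378), but it was well above background on 1 of 4 EB arrays and 0 of 3 T+E arrays. Oasl, not well above background in the 3 other PND 145 groups, came next at 4.33 ± 1.18 (adjusted p = 0.0764). By construction the interaction equals the combined ratio to control less the sum of the separate EB and T+E ratios. It was positive for 35 of 36 genes, compared with 41.2% of all genes, and this sign is not separate evidence. The median was 4.07 for the combined ratio and 1.90 for the sum. An unadjusted p under 0.05 was reached by 18 of 36 genes, compared with 13.5% of all genes. The calls rest on 2 genes and were sensitive to single arrays: 0 to 5 genes were called when 1 array was left out, with 5 called without EB+T+E replicate 3. The interaction called 0 genes with a filter of 17 arrays, which Gbp4, well above background on 14 arrays, does not pass. It called 8 with only the 4 groups in the model. With array weights, which stopped before reaching their convergence tolerance, it called 18. At PND 100 the interaction called 0 of 36 genes and 0% of all genes with limma, although 5 of the 36 and 1999 of all genes (8.63%) had an unadjusted p under 0.05. Its median was -0.96.

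**Figure D4:**
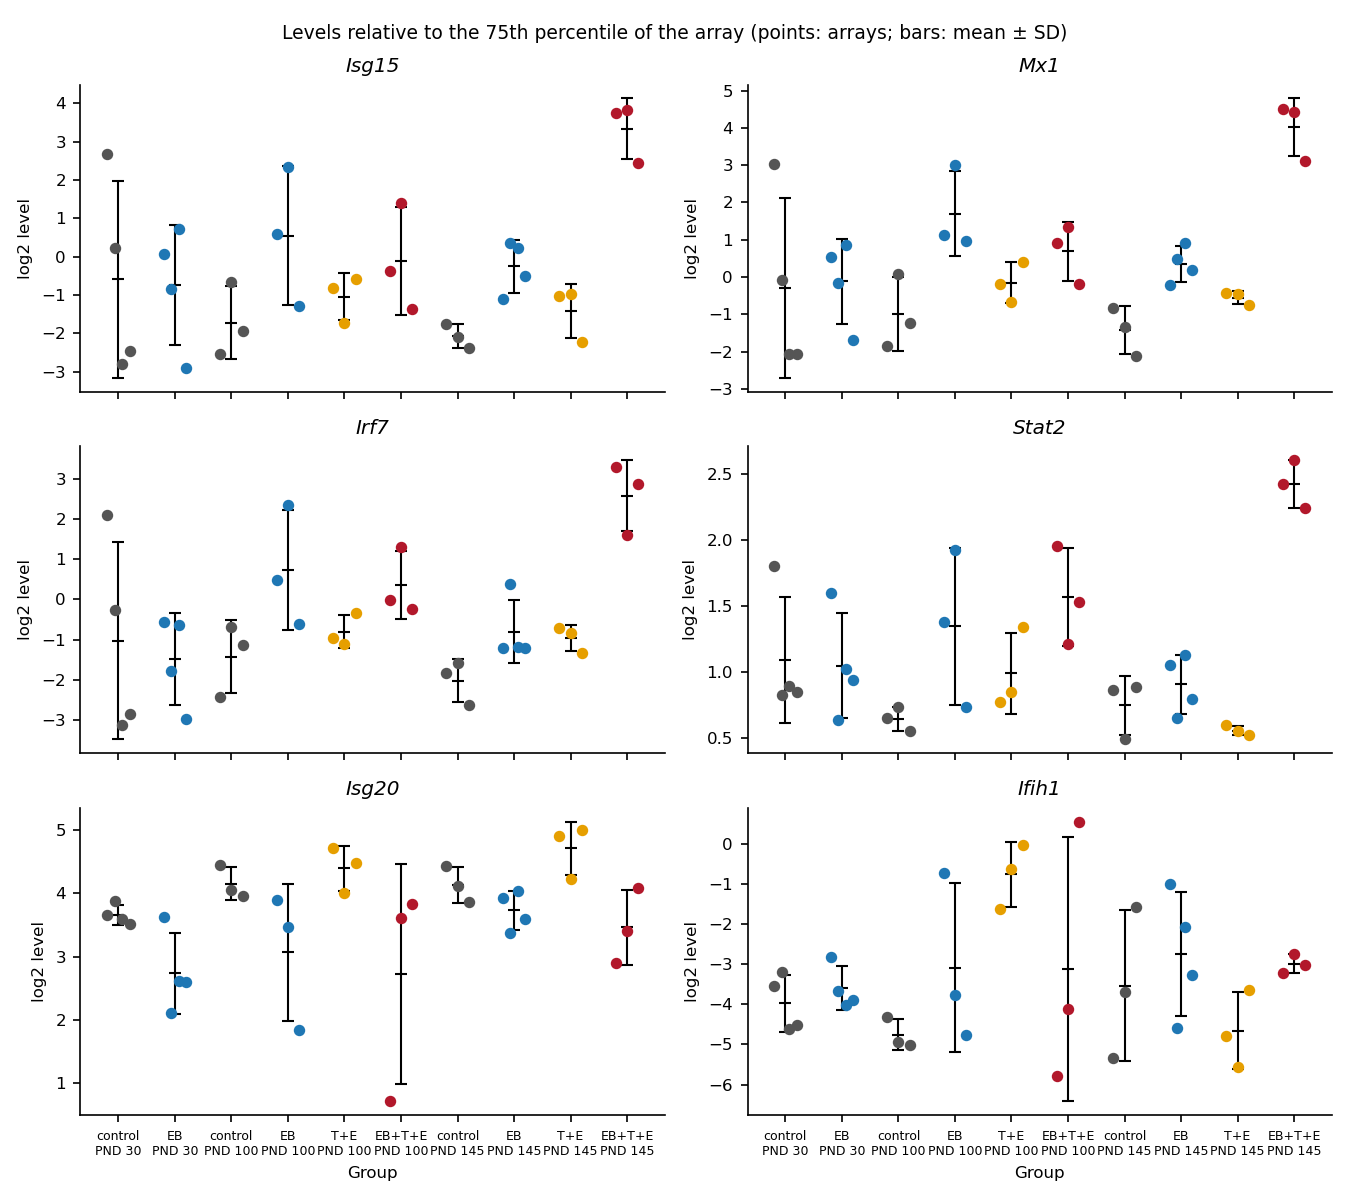
Log2 levels of Isg15, Mx1, Irf7, Stat2, Isg20 and Ifih1 relative to the 75th percentile of the array, in the 10 groups. Points are arrays and bars are mean ± SD (n = 3 or 4); in the first 4 panels EB+T+E at PND 145 has the highest group mean, whereas Isg20 and Ifih1 do not show this and Ifih1 spans -5.79 to 0.55 within EB+T+E at PND 100.

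Within EB+T+E animals, part of the genes were called higher at PND 145 than at PND 100. An unadjusted p under 0.05 was reached by 33 of 36 genes, compared with 16.7% of all genes. From PND 100 to PND 145, 14 of 36 genes were called higher (median log2 ratio 2.07, with 2.41% of all genes called higher). They were Irf8, Irf9, Zbp1, Mx1, Rsad2, Cmpk2, Eif2ak2, Ifi44l, Ifi35, Xaf1, Herc6, Trim21, Parp14 and Gbp5. Mx1 stood at 0.91, 1.35 and -0.20 at PND 100 and at 4.51, 4.41 and 3.12 at PND 145 (3.32 ± 0.88, limma adjusted p = 0.033). Cmpk2 stood at -2.50, -2.09 and -3.41 and at 0.81, 1.04 and -0.76 (3.03 ± 0.66, adjusted p = 0.00995). Isg15 did not pass the test (3.46 ± 1.06, adjusted p = 0.0702), although its arrays did not overlap between the ages. The B-cell and plasma-cell markers were called higher over the same interval in 7 of 8 cases and the T-cell markers in 8 of 10, whereas 0 of 11 macrophage and dendritic markers and 0 of 4 neutrophil markers were called. The part of these cells in the change was not tested. The count fell to 1 without EB+T+E replicate 1 or replicate 2 at PND 145, was 4 without EB+T+E replicate 3 at PND 100, and was 22 without EB+T+E replicate 3 at PND 145. It was 0 with only these 2 groups in the model.

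The same age comparison called 0 genes in the other 3 groups. Animals at PND 30 had no tubing, so from PND 30 to PND 100 age and implantation cannot be told apart either. Control animals had 0 of 36 genes called from PND 100 to PND 145 (median -0.34, with 0% of all genes called and 0 of the 36 and 2.46% of all genes at an unadjusted p under 0.05). EB animals had 0 called (median -0.85, 0.747% of all genes called), with 7 of 36 at an unadjusted p under 0.05 beside 15.7% of all genes. T+E animals had 0 called (median -0.20, 0.0432% of all genes called), with 1 of 36 at that p beside 7.73% of all genes. From PND 30 to PND 100, control animals had 0 called (median -0.83, 2.25% of all genes called), with 7 of 36 at an unadjusted p under 0.05 beside 13.9% of all genes. Without control replicate 1 at PND 30 this median was -0.25. EB animals had 3 called higher (median 1.06, 5.50% of all genes called higher), namely Irf8 (2.40 ± 0.59), Zbp1 (3.15 ± 0.85) and Ddx60 (3.17 ± 1.01, limma adjusted p = 0.0491). Zbp1 stood at -5.54, -6.12, -6.13 and -8.35 at PND 30 (3 of 4 arrays well above background) and at -4.27, -2.06 and -3.84 at PND 100 in EB animals. Leaving out 1 array gave 0 to 5 called genes, and 0 were called with only the 2 groups in the model.

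At PND 100, EB+T+E animals had 2 of 36 genes called higher than control, near the share of all genes called higher (5.40%). The median log2 ratio was 1.40, or 1.32 with Oasl and Gbp4 at their bounds. An unadjusted p under 0.05 was reached by 19 of 36 genes, compared with 28.1% of all genes. Stat2 stood at 1.95, 1.21 and 1.53 and at 0.65, 0.74 and 0.55 in control (0.92 ± 0.28, limma adjusted p = 0.0277). Ddx60 stood at -5.33, -3.80 and -5.01 and at -9.40, -6.55 and -8.40, with 1 of 3 control arrays well above background (3.40 ± 1.08, adjusted p = 0.0379). Dhx58, with the next smallest p, stood at -2.54, -3.13 and -3.81 and at -5.37, -4.15 and -4.92 (1.66 ± 0.56, adjusted p = 0.0516). Of the 17 effectors 0 were called. Of the leukocyte markers, 3 of 5 all-leukocyte, 8 of 11 macrophage and dendritic, 4 of 4 neutrophil and 0 of 8 B-cell and plasma-cell markers were called higher. The neutrophil markers had a median log2 ratio of 6.24 at PND 100 and 6.28 at PND 145. Replicate 1 had the highest summed leukocyte level of the group (32.2) and the lowest summed luminal level (26.2). Replicate 2 was the highest of the 3 for 20 of 36 interferon response genes. By median deviation, replicate 2 was highest in B-cell markers (0.07, 1.39 and -0.10 on replicates 1 to 3) and natural killer and cytotoxic markers (-0.14, 0.49 and -0.31). Replicate 1 was highest in T-cell, macrophage and dendritic, and neutrophil markers. The part of these cells was not tested. The count was 0 without control replicate 1, control replicate 3 or EB+T+E replicate 1, 1 without control replicate 2, and 11 without EB+T+E replicate 3, of which 10 were higher and 1 lower. Without EB+T+E replicate 2 it was 2, of which 1 was higher and 1 lower. It was 0 with normexp background correction or only the 2 groups in the model and 7 with slide as a block, and the median ratio was 1.44 within slide 1 and 2.39 within slide 2. Against T+E alone 0 genes were called (median 0.84, 3.98% of all genes called), and 8 of 36 had an unadjusted p under 0.05, near the 21.7% of all genes that did. Against EB alone 0 were called (median -0.47, 1.71% of all genes called), with 2 of 36 at that p beside 15.7% of all genes.

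In EB animals without adult hormones a few of the genes were higher at PND 100. Of the 36 genes, 6 were called higher than control (median log2 ratio 1.83, or 1.76 with Oasl and Gbp4 at their bounds), whereas 1.81% of all genes were called higher, and 27 of 36 had an unadjusted p under 0.05, compared with 22.2% of all genes. The EB group had the highest mean of the 4 PND 100 groups for 29 of 36 genes, an order not counted over all genes. Ddx60 stood at -4.48, -2.32 and -3.78 with EB and at -9.40, -6.55 and -8.40 in control, 1 of 3 control arrays well above background (4.59 ± 1.08, limma adjusted p = 0.0295). Xaf1 stood at -5.77, -4.51 and -5.17 and at -7.49, -6.92 and -7.29, again with 1 of 3 (2.08 ± 0.50, adjusted p = 0.0316). Irf8 stood at -2.10, 0.78 and 0.69 and at -3.22, -2.58 and -2.29 (2.49 ± 0.63). Cmpk2 and Herc6 followed, the first at -2.02, -0.68 and -1.68 and at -4.62, -3.51 and -4.10 (2.61 ± 0.66). Herc6 stood at -1.62, 0.29 and -1.11 and at -3.92, -2.75 and -4.11 (2.77 ± 0.72). Parp14 stood at 0.26, 1.76 and 1.34 and at -0.41, -0.28 and -0.73 (1.59 ± 0.42, adjusted p = 0.0416). In all 6 the EB arrays lay above the control arrays, as they did for 23 of the 36 genes and 2667 of 23156 genes tested. Isg15 did not pass, with EB arrays at 0.58, 2.35 and -1.28 that overlapped control at -2.55, -0.67 and -1.95 (2.27 ± 1.06, adjusted p = 0.205).

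Among the 3 EB animals at PND 100, replicates 2 and 3 had higher leukocyte, T-cell, macrophage and neutrophil markers than replicate 1. Replicate 1 had summed leukocyte, T-cell and neutrophil levels of 7.29, 0.94 and 0.01 and a median deviation of the interferon response genes of 0.33. Its B-cell markers deviated by 0.14 and its macrophage and dendritic markers by -0.16, above the control arrays at -1.44, -1.62 and -0.43 for the former and -0.93, -0.71 and -0.55 for the latter. Replicate 2 had the highest value of the group for 29 of 36 genes, with a leukocyte level of 17.01 a B-cell and plasma-cell level of 0.47, and the lowest ventral prostate products of the 33 arrays (-6.57). Replicate 3 had the highest leukocyte and B-cell levels at 32.0 and 23.7, and a median deviation of 0.59. Control arrays at PND 100 had median deviations of -1.53, -0.48 and -0.89. Across the group 1 of 5 all-leukocyte, 3 of 10 T-cell, 3 of 8 B-cell, 3 of 11 macrophage and dendritic and 0 of 4 neutrophil markers were called higher, and the part of these cells and products was not tested. The count of 6 rested on single arrays: it was 0 without control replicate 1, control replicate 3, EB replicate 2 or EB replicate 3, 1 without control replicate 2, and 16 without EB replicate 1. It was also 0 with normexp background correction or with only the 2 groups in the model, and 20 with slide as a block. Within slide 1 the median ratio was 2.87 and within slide 2 it was 1.99.

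At PND 145 the EB animals had 0 of 36 genes called against control (median 1.21, with 0.570% of all genes called), and 16 of 36 had an unadjusted p under 0.05, compared with 15.2% of all genes. All EB arrays lay above all control arrays for 23 of 36 genes, and this was so for 8.82% of all genes. The median ratio was 1.61 within slide 3 and 1.46 within slide 4. Cmpk2 had the smallest p and stood at -3.75, -2.43, -2.12 and -2.81 with EB and at -4.70, -4.57 and -5.49 in control (2.14 ± 0.62, limma adjusted p = 0.105). Trim21 stood at -2.71, -2.79, -2.29 and -2.94 and at -3.19, -3.60 and -3.74 (0.83 ± 0.25, adjusted p = 0.121). A second Trim21 probe, well above background on 3 of 4 EB and 1 of 3 control arrays, gave a ratio of 0.12. Herc6 stood at -2.97, -1.87, -1.45 and -2.40 and at -3.45, -4.63 and -4.60 (2.06 ± 0.67, adjusted p = 0.149). Of the 6 leukocyte marker lists 0 had a called marker in this comparison, and the summed B-cell level was 0.13 to 0.26 on the EB arrays. By median deviation, however, all 4 EB arrays lay above all 3 control arrays for all-leukocyte markers (-0.55, -0.34, -0.20 and -0.51 with EB, -0.94, -1.05 and -1.65 in control) and T-cell markers (-0.17, -0.08, -0.02 and -0.42 and -1.04, -0.64 and -1.68). The B-cell markers did so too (0.73, -1.21, 0.20 and -1.16 and -1.37, -1.32 and -1.73), and the part of these cells in the EB values was not tested. The change of the EB effect from PND 100 to PND 145 called 0 of 36 genes (median -0.53, 0% of all genes, with 0 of the 36 and 4.32% of all genes at an unadjusted p under 0.05).

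T+E without neonatal EB had 0 genes called at either age. At PND 100 the median log2 ratio to control was 0.58, 1 of 36 genes had an unadjusted p under 0.05 beside 8.34% of all genes, and 0.181% of all genes were called. Ifih1 had the smallest p, at -1.63, -0.63 and -0.03 with T+E and at -4.31, -4.93 and -5.03 in control (3.99 ± 1.14, limma adjusted p = 0.161), and its arrays did not overlap. Ddx58 stood at -3.79, -4.68 and -3.32 and at -6.13, -5.29 and -3.81 (1.14 ± 0.60). Herc6 stood at -2.15, -2.54 and -2.29 and at -3.92, -2.75 and -4.11 (1.27 ± 0.72). At PND 145 the median was 0.62, with 1 of 36 at an unadjusted p under 0.05 beside 9.85% of all genes, and 0.384% of all genes called. All-leukocyte markers deviated by -0.55, 0.59 and -0.69 on the 3 T+E arrays, all above control at -0.94, -1.05 and -1.65, and neutrophil markers by -0.66, 3.61 and -1.06, with replicate 2 far above the others. The part of these cells was not tested. Medians within single slides were 0.36 to 0.70 at the 2 ages. All T+E arrays lay above all control arrays for 14 of 36 genes, as they did for 9.15% of all genes. Herc6 stood at -1.66, -2.13 and -2.20 and at -3.45, -4.63 and -4.60 (2.23 ± 0.72, adjusted p = 0.212). Cmpk2 stood at -3.30, -3.53 and -3.97 and at -4.70, -4.57 and -5.49 (1.32 ± 0.66). Ddx60 stood at -6.21, -5.72 and -6.96 with T+E, at least 2.55-fold higher than in control (adjusted p = 0.649). The group mean with EB was above that with T+E for 34 of 36 genes at PND 145, and control was the lowest of the 4 groups for 28. These orders were not counted over all genes. Both treatments are compared with the same control arrays.

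**Figure D5:**
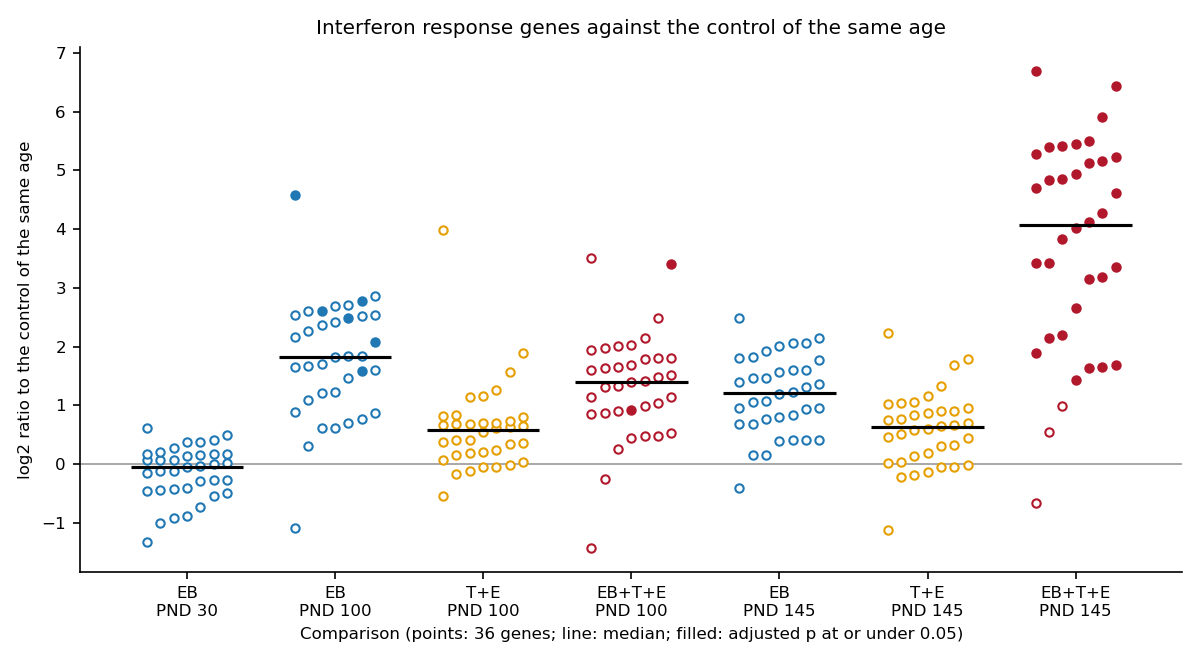
Log2 ratios of the 36 genes to control in 7 comparisons, 1 point per gene with a line at the median. The medians are -0.04 (EB, PND 30), 1.83, 0.58 and 1.40 (EB, T+E and EB+T+E, PND 100) and 1.21, 0.62 and 4.07 (EB, T+E and EB+T+E, PND 145); groups of the same age share their control arrays.

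In prepubertal animals at PND 30, EB gave 0 called genes (median -0.04, compared with -0.14 over all genes, of which 0.0475% were called), and 1 of 36 genes had an unadjusted p under 0.05 beside 11.9% of all genes. Bst2 stood at 0.97, -0.18, -0.33 and -1.14 with EB and at 2.26, 0.14, 0.65 and 0.26 in control (-1.0 ± 0.47, limma adjusted p = 0.405). Isg20 stood at 3.62, 2.11, 2.61 and 2.59 and at 3.66, 3.87, 3.60 and 3.51 (-0.92 ± 0.47), and Oasl at -7.54, -8.28, -7.72 and -8.74 (1 of 4 arrays well above background) and at -4.29, -6.45, -7.90 and -8.31 (2 of 4; -1.33 ± 0.75). The control group itself was spread by replicate 1, which was above all 9 other control arrays of the study for 33 of 36 genes (not counted over all genes). Its median excess over the mean of the other 3 control arrays at PND 30 was 2.20. Isg15 was at 2.68, 0.22, -2.81 and -2.46 and Mx1 at 3.03, -0.08, -2.06 and -2.08 on the 4 control arrays. On this array the summed leukocyte level was 8.28, the T-cell level 1.17 and the B-cell level 0.15, against 5.48 to 6.28, 0.56 to 0.80 and 0.09 to 0.12 on the other 3. By median deviation the natural killer and cytotoxic markers stood at 0.68 on this array (-0.98 to -0.84 on the other 3), the macrophage and dendritic markers at -0.05 (-1.41 to -1.06) and the neutrophil markers at -0.79 (-2.49 to -2.11). The part of these cells was not tested. Within slides 1 to 4, which held 1 array of each group, the median ratio was -1.89, 1.11, -0.86 and 0.98. Leaving out control replicate 1 gave 0 called genes and turned the median from -0.04 to 0.51. The change of the EB effect from PND 30 to PND 100 called 0 of 36 genes (median 1.88, 0.0216% of all genes called), and 23 of 36 had an unadjusted p under 0.05 beside 8.41% of all genes. Leaving out 1 array gave 0 to 4 called genes, and the median was 1.26 without control replicate 1 at PND 30.

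Isg20, Mx2 and Ifih1 were the tested genes that did not pass in EB+T+E at PND 145. Isg20, an exonuclease of viral RNA that is also regulated by estrogen in other tissues and cells, stood at 2.90, 3.41 and 4.07 with EB+T+E and at 4.42, 4.11 and 3.86 in control (-0.67 ± 0.54, limma adjusted p = 0.351). At PND 100 its EB+T+E arrays gave 0.72, 3.61 and 3.83 and its control arrays 4.45, 4.05 and 3.95 (-1.43 ± 0.54, adjusted p = 0.083). Replicate 1 of that EB+T+E group was the lowest of all 33 arrays for Isg20 and also had the lowest luminal marker sum. Mx2, a paralog of Mx1, stood at 4.85, 5.00 and 3.44 and at 3.58, 3.31 and 3.45 (0.99 ± 0.40, adjusted p = 0.0574). Its second probe, at -6.25, -6.41 and -8.08 and -6.86, -6.69 and -6.76, gave a ratio of -0.14. The 2 Mx2 probes are shown because their readings differ, with positions in rn4, the build of the array's grid file.
Mx2 probe used (chr11:37572657-37572716, plus strand): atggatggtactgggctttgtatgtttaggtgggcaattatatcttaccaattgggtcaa
Mx2 second probe (chr11:37575743-37575802, plus strand): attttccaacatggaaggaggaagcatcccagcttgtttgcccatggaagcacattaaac

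A second probe was available for 11 of the genes. At PND 145 the EB+T+E ratio of the 2 probes was 4.85 and 4.73 for Oas1a, 4.93 and 4.84 for Ifi44l (second probe well above background on 1 of 3 control arrays), and 3.42 and 3.20 for Ifi44. The second Rsad2 probe was not well above background on any control array and was at least 24.0-fold higher with EB+T+E, whereas the probe used gave a log2 ratio of 5.50. The ratios were 4.70 and 3.85 for Irf8 (second probe well above background on 2 of 3 control arrays), 1.66 and 1.46 for Irf9, and 1.88 and 1.73 for Eif2ak2. For Trim21 they were 1.64 and 1.54 (second probe well above background on 1 of 3 control arrays). For Ddx58 the second probe, not well above background in control, was at least 3.16-fold higher, and the probe used gave a log2 ratio of 4.02. The second Gbp4 probe was not well above background in either group. The Ifi44 probes lie next to each other on chromosome 2. In EB animals at PND 100 they gave ratios of 0.61 and 2.15. The probe used read -2.55, -0.19 and -0.39 on the EB arrays and -1.76, -1.52 and -1.68 on the control arrays. The second read -0.25, 0.95 and -0.54 and -2.11, -1.49 and -2.67. Both Ifi44 probes, and the Ifit1 probe that gave no signal above background, are printed with rn4 positions. Genes of the Oas, Ifit, Gbp and Mx families have close paralogs, and binding of a probe to a paralog was not tested.
Ifi44 probe used (chr2:250039283-250039342, minus strand): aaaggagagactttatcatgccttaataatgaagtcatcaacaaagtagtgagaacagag
Ifi44 second probe (chr2:250039178-250039237, minus strand): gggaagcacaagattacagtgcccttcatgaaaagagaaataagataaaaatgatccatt
Ifit1 probe (chr1:238610083-238610142, plus strand): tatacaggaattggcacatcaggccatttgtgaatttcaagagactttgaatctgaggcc

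The genes upstream of the response were read from lists of interferons, receptors, inhibitors and sensors. Of 12 interferon genes listed, 3 were tested, and 1 was called higher in EB+T+E at PND 145. Ifng, which encodes interferon gamma, stood at -5.57, -6.75 and -6.84 on the EB+T+E arrays and at -9.25, -8.64 and -9.66 in control, not well above background, at least 4.26-fold higher (limma adjusted p = 0.000941). Ifna4 gave -0.53 ± 0.34 (adjusted p = 0.225) and Ifnl3 0.08 ± 0.69. Ifnb1, Ifna2, Ifna5, Ifna16l1, Ifne and Ifnk had probes that did not pass the filter. Ifna1, Ifna11 and Ifnl1 had no probe by name. Of receptors and kinases 3 of 9 were called higher, namely Ifngr2, a chain of the interferon gamma receptor (1.55 ± 0.28), Il10rb, a chain shared with the lambda receptor (1.25 ± 0.27), and Ifnar2 (1.62 ± 0.49). Ifnar1 did not pass (0.58 ± 0.32, adjusted p = 0.152).

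Among inhibitors of the signal, Socs3 and Socs1, which act on Jak kinases, gave 3.91 ± 1.01 and 1.36 ± 0.51, and the phosphatase Ptpn6 gave 1.48 ± 0.41. Pias1 did not pass (-0.37 ± 0.31, limma adjusted p = 0.362). Of 15 upstream sensors and adaptors, 9 were called higher and 1 lower, beside 14.7% and 20.7% of all genes. Mb21d1, the cytosolic DNA sensor cGAS, was at least 18.8-fold higher, the inflammasome sensor Aim2 at least 61.2-fold and the endosomal RNA receptor Tlr7 at least 15.3-fold, since control arrays were not well above background. The kinase Ikbke gave 1.98 ± 0.26. The adaptor of RIG-I and MDA5, Mavs, was the gene called lower, at 0.29, 0.83 and 0.14 with EB+T+E and at 1.71, 2.05 and 1.92 in control (-1.47 ± 0.35, limma adjusted p = 0.00243). Of 56 other interferon-induced genes 46 were called higher (median 2.47). Helz2, a transcriptional coactivator, gave 4.77 ± 0.53, Ube2l6, the conjugating enzyme for Isg15, 3.06 ± 0.38, Lgals9, a galectin, 4.30 ± 0.58, and Cxcl9, a chemokine induced by interferon gamma, 4.07 ± 0.55. In EB+T+E animals at PND 100, 5.40% of all genes were called higher and 7.22% lower than in control. The counts there were 14 of 56 other induced genes, 6 higher and 1 lower of 15 upstream genes and 2 of 9 receptors. In EB animals at PND 100 they were 6 of 56 and 5 of 15, and 0 of 3 interferons were called at that age in either group.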

How the data were processed

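Total RNA from rat prostate (RNA integrity number of at least 8) was labelled with Cy3, 500 ng per reaction, and hybridised to 33 Agilent 8x60K arrays, per the labels' protocols. The deposited scanner files hold spot intensity as background-subtracted processed signal from Agilent Feature Extraction 12.0.0.7, per the file headers. The authors' deposited value table holds linear intensity scaled so that each array's 75th percentile is 619 to 620, with column medians of 30.8 to 49.9; on a log scale it correlated with the scanner signals at 0.999982 or above. It served as an alternative. The software and scaling behind the table are not given in the sources used here.

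Log2 of the processed signal minus the log2 75th percentile of the array was computed for non-control spots, without outlier spots, and spots of a probe were averaged. A probe was kept if 3 or more of the 33 arrays read it well above background (30543 of 45598 probes), and the brightest probe stood for a gene (23156 genes, 18327 with a symbol). Probes were named by RefSeq accession (21177), symbol (9067) or synonym (406); 5247 kept the file's name and 9701 had none. limma 3.58.1 in R 4.3.3 fitted 10 group means to all 33 arrays with trended, robust eBayes, and Benjamini-Hochberg adjustment ran over all genes within each of 21 comparisons, with a threshold of 0.05. Other tools were the R package data.table (1.17.8), Python 3.11.15, pandas 2.3.3 and matplotlib 3.10.9. The 36 tested genes may all be named, with array values for those called against control and for the 3 smallest p per comparison with control, and up to 4 genes of each other pathway list.

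The members and the pathway and marker lists were chosen with earlier results of these data known. Slides 1 to 4 held 8 arrays each, and slide 5 held EB replicate 4 at PND 145. Same-numbered arrays deviated together in all 3 pairs (correlation 0.12 to 0.34 over genes) in 1 comparison, EB+T+E at PND 145 against PND 100. No label pairs these arrays, and the main model did not pair them. Replicate number was used only as a block in an alternative. Tested on simulated data, the model recovered 13% of genes changed by 1 and 54% of those changed by 2 (log2) in EB against control at PND 100, with 5 false calls among 23156 genes, and 16%, 60% and 1 at PND 145. The alternatives were quantile scaling, normexp in place of the processed signal (offset 50), a filter of 17 arrays or none, slide or replicate number as a block, only the groups compared, the mean of all probes, array weights, the authors' own values and leaving out each array.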

Additional observations from a re-analysis of the deposited data

Results flagged for a closer look

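In groups of 4 arrays, 7 of 108 gene and group combinations (36 genes in 3 groups) held an array that stood apart from the others by Dixon's criterion, and chance flags about 1 in 20. In control animals at PND 30 the array that stood apart was replicate 1 in 5 cases, each time as the highest. Its log2 level was -0.38 for Herc6 (the next array at -3.24), 0.76 for Ifi44 (-1.04), 1.37 for Irf1 (0.69), 1.80 for Stat2 (0.89) and -2.14 for Trim21 (-3.12). In EB animals at PND 145 Irf7 reached 0.39 on replicate 2 (the next at -1.18), and Mx2 reached 4.03 on replicate 3 (the next at 3.50).

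The effect of EB at PND 145 differed between animals with and without T+E for Stat2, by 1.71 on the log2 scale, and for Gbp4, by 3.41, in limma's interaction test. Gbp4 was below background in most arrays of the other PND 145 groups.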

How the results depend on the processing

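The comparison of EB+T+E with control at PND 145 called 33 genes, 31 to 35 under the 10 settings that kept all arrays and 33 to 34 with 1 array left out. Against T+E the count was 31 to 36 (31 to 34 with 1 array left out), and against EB 29 to 34 (24 to 33). Of the single-gene calls, 1845 combinations of call and setting kept direction and threshold, 197 kept direction and lost the threshold (129 with 1 array left out and 28 with only the groups compared), and 0 reversed.

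Counts elsewhere were small and moved with the setting. For EB against control at PND 100 (6 genes) they were 0 with normexp, 2 with no filter, 20 with slide as a block, 0 with only the groups compared, 31 with array weights and 0 to 16 with 1 array left out. At PND 100 for EB+T+E (2 genes against control) they were 0, 1, 7, 0, 21 and 0 to 11 under the same settings. For EB+T+E at PND 145 against PND 100 (14 genes) the count was 0 with only the groups compared, 23 with array weights and 1 to 22 with 1 array left out. For EB at PND 100 against PND 30 (3 genes) it was 0, 13 and 0 to 5. The interaction at PND 145 (2 genes) gave 1 with no filter and 0 with the filter of 17 arrays, which Gbp4 does not pass. It gave 8 with only the groups compared, 18 with array weights and 0 to 5 with 1 array left out. At PND 100, EB+T+E against T+E (0 genes) gave 2 with slide as a block, 9 with array weights and 0 to 5 with 1 array left out. Array weights called 5 genes for EB against control at PND 145, 20 for EB at PND 145 against PND 100 (0 to 3 with 1 array left out), 12 for the EB effect at PND 100 against PND 30 (0 to 4), 2 for control at PND 100 against PND 30 (0 to 1), and 1 each for EB against control at PND 30, the interaction at PND 100 (0 to 1), the EB effect at PND 145 against PND 100, T+E against control at PND 100 and PND 145, and T+E at PND 145 against PND 100. The last comparison and T+E against control at PND 100 also gave 1 with only the groups compared. The cause of these moves was not tested. The array weights stopped before reaching their convergence tolerance.

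With replicate number as a block, EB+T+E at PND 145 against PND 100 gave 19 genes instead of 14, although no label pairs these arrays. In other comparisons the replicate block gave 4 genes at PND 100 for EB+T+E against control, 1 for the interaction at PND 145 and 1 for control at PND 100 against PND 30. It gave 7 for EB against control at PND 100 and 33 at PND 145 for EB+T+E against control. Groups hold 3 or 4 arrays, litters cannot be assigned to arrays, and levels near background (Ddx60, Gbp4, Oasl and Xaf1) carry bounds instead of ratios.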
